A study of Mus musculus with 2 samples.

Results

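The genes described here are 10 surface markers of adipose progenitors: the platelet-derived growth factor (PDGF) receptor genes Pdgfra and Pdgfrb, the general progenitor antigens Ly6a and Cd34, the stem-like markers Dpp4 and Pi16, the committed preadipocyte marker Icam1, the marker F3 of a regulatory progenitor class, and Cd24a and Cd9. They were chosen by name out of 21887 protein-coding genes. They and the other gene lists below were chosen with earlier results of these data known. A region was counted for a gene when it overlapped the RefSeq gene or the 50 kb on either side of it. This gave 19 of the 34139 regions in the authors' list. The list compares 1 bisulfite library of CD137+ with 1 bisulfite library of PDGFRα+ adipose progenitors, both from C57BL/6 mice and both exposed to dexamethasone, a synthetic glucocorticoid. The cells had been sorted with magnetic beads from subcutaneous or visceral fat, grown, and given an adipogenic mixture, per the labels' protocols, so they are cultured cells, which the labels call differentiated, and not fresh progenitors. The labels do not name the depot of either library or the number of animals behind it. Pdgfra encodes the antigen by which 1 of the libraries was sorted.

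Each region carries only the authors' signed score. It is not a methylation level, its scale is not defined in the list, and no value per library is given. The order of subtraction behind the sign is not stated either, so regions are called positive or negative and not higher or lower in a library. There are no replicates and the read depth is unknown, so every value below describes these 2 libraries, with no replicate error beside it. No expression was measured, and the labelled cell types could not be checked against their markers.

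PDGF receptors are receptor tyrosine kinases that dimerise when they bind a PDGF ligand and then recruit signalling proteins to their phosphorylated tails. In fat, PDGFRα marks fibroblast-like progenitors and PDGFRβ also marks cells along blood vessels. Single-cell studies divide adipose progenitors into a DPP4+ and PI16+ stem-like class, an ICAM1+ class that is committed to the adipocyte fate, and a class that carries CD142, the product of F3, which has been described as restraining the differentiation of its neighbours. Methylated cytosine in mammals sits mainly in CpG dinucleotides, and the CpG-rich start sites of many genes are usually free of it.

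The DNA in front of Dpp4 and Pi16 held fewer CpGs than that in front of Icam1 and F3. The sequences of these 4 genes are shown so that they can be compared by the letters on which methylation sits. With so few genes per class, the difference describes these genes and not their classes. Each run is the part of the RefSeq start-site window that lies outside the gene, 5′ to 3′ on the gene's strand, GRCm38.p6 build, with each CpG in capitals. The stretches are chr2:62412316-62412481 (minus strand) for Dpp4, chr17:29318632-29318795 (plus strand) for Pi16, chr9:21015690-21015939 (plus strand) for Icam1 and chr3:121723287-121723536 (plus strand) for F3.
Dpp4: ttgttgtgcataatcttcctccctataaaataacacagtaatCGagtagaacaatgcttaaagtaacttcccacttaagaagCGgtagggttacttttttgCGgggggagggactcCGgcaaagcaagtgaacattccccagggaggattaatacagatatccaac
Pi16: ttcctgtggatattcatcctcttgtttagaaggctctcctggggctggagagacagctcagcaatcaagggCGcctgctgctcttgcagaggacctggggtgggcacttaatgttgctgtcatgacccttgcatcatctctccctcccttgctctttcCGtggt
Icam1: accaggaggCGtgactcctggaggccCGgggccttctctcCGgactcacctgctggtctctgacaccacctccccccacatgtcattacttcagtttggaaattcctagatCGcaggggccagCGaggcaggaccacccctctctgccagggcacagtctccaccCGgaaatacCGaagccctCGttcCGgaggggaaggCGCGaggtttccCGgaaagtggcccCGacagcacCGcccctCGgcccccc
F3: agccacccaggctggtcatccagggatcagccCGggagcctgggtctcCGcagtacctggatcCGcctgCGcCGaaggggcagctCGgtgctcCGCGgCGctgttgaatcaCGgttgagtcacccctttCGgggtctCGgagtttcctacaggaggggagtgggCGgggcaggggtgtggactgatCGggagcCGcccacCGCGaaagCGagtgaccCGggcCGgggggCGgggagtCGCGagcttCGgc
The 166 bases before Dpp4 hold 4 CpGs and the 164 bases before Pi16 hold 2, whereas the 250 bases before Icam1 hold 15 and the 250 before F3 hold 24.

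Over full windows of 300 bp, from 250 bases before the start site to 50 from it on, RefSeq sequence was at hand for 7 members. Pi16 had 3 CpGs, Dpp4 4, Pdgfra 5 and Cd34 7, all under the median of 13 (quartiles 4 and 24) over 21238 windows of protein-coding genes. Cd9 had 18, Icam1 19 and F3 32. The F3 window had more CpGs than 87.4% of all windows, and the Pi16 window more than 18.1%. No region of the list overlapped any of these 7 windows. Only 0.904% of all windows overlapped one, so none among 7 is the usual outcome and says nothing particular about these genes. The glucocorticoid receptor motif (AGAACA and TGTTCT with 3 bases between them, which reads the same on both strands) was in none of the 7 and in 2 of all windows. The TEAD motif GGAATG, searched on both strands, was in 1 of the 7, that of Dpp4, and in 13.6% of all windows. A match is a run of letters and not a bound site.

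**Figure D1:**
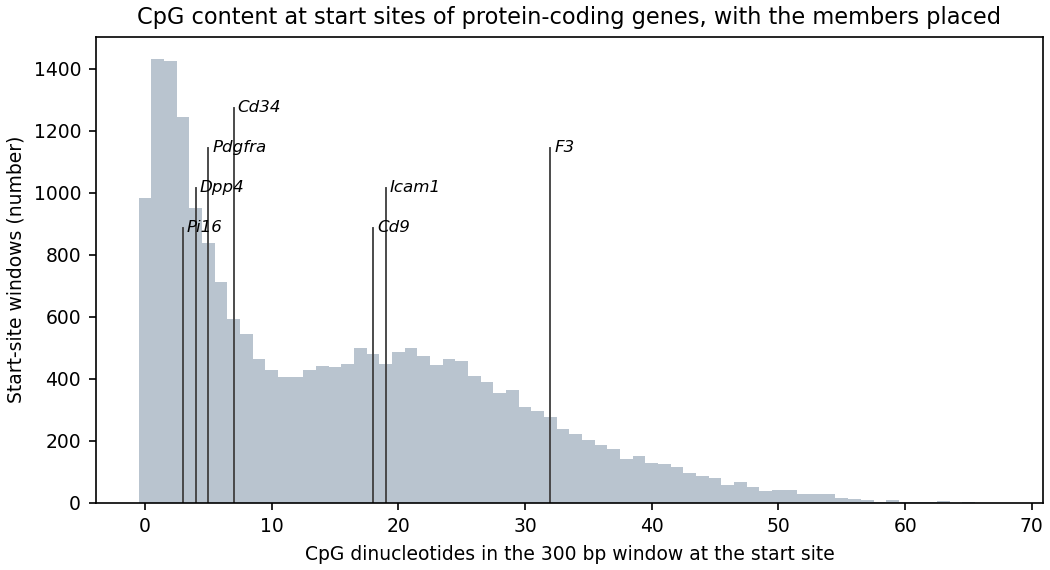
Number of CpG dinucleotides (x axis) in 300 bp windows at the start sites of protein-coding genes, with the number of windows on the y axis; vertical lines place the 7 members with a sequence. Pi16 and Dpp4 lie at 3 and 4 CpGs in the CpG-poor peak, Icam1 at 19 and F3 at 32.

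At least 1 region lay within 50 kb of 9 of the 10 members, all but Cd9, against 68.5% of all protein-coding genes. The members were of ordinary length, with a median of 17.7 kb against 17.2 kb over all coding genes. Counts ran from 0 at Cd9 and 1 each at Cd34, Icam1 and F3 to 3 each at Pdgfrb and Ly6a and 4 at Cd24a. The median was 2 regions per member and 1 per coding gene (quartiles 0 and 3), and every member but Cd24a lay within those quartiles. A region inside the gene was found at 4 members (Pdgfra, Cd34, Dpp4 and Pi16), against 28.9% of coding genes.

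**Figure D2:**
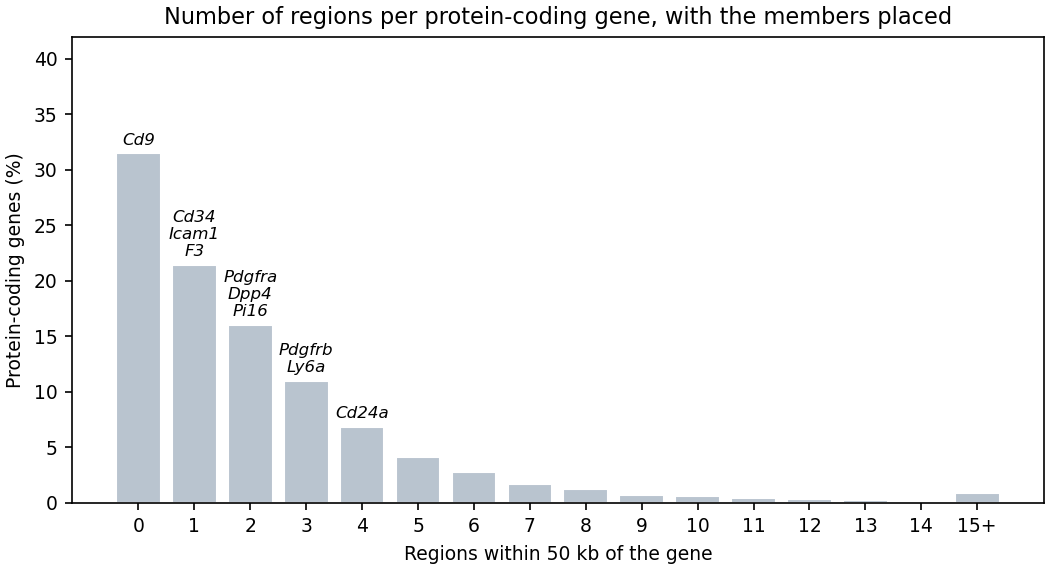
Percent of all protein-coding genes (bars, y axis) by the number of regions in the gene or within 50 kb (x axis, genes with 15 or more together), with the members written above the bar of their own count. The members sit on the bars for 0 to 4 regions, where most genes lie.

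By sign, 12 of the 19 regions were positive and 7 negative, or 36.8% negative (95% Wilson interval 19.1 to 59.0), against 67.4% over the whole list. A positive region lay within 50 kb of 7 members, against 38.1% of coding genes, and a negative region within 50 kb of 6, against 58.6%. This tilt depended on the limit of 50 kb: the 20 regions from 50 to 100 kb were 80.0% negative (58.4 to 91.9), and all 39 within 100 kb were 59.0% negative. The 8 regions at least 100 bp wide were 62.5% negative, so the positive majority was not kept among them. The share over the whole list at that width is not given here, so the part of width in the tilt is not known.

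The typical region was near the middle of the list in size, but strong ones made up a larger share. The median width was 89 bp against 112 bp, and the median absolute score 54.1 against 49.4. An absolute score of 100 or more was reached by 6 of the 19 regions, or 31.6%, against 15.5% of the list. With so few regions the counting error is wide, no interval was computed for this share, and the difference was not tested. These lay at 5 members (Pdgfra, Pdgfrb, Ly6a, F3 and Cd24a), and 24.8% of coding genes had such a region within 50 kb. The member was the nearest coding gene for 8 of the 19 regions. Another coding gene was overlapped by 6, and 7 lay in no gene of any class. The same shares over the whole list are not given here, so these counts cannot be called low or high.

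**Figure D3:**
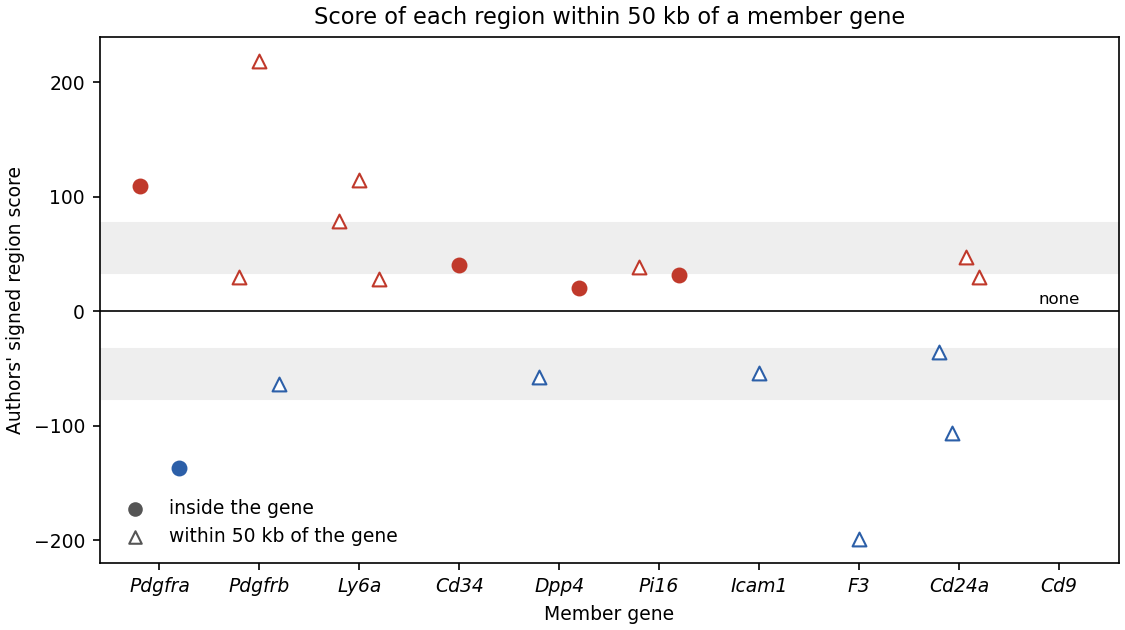
The authors' signed score (y axis) of each of the 19 regions, by member gene (x axis); filled circles lie inside the gene, open triangles within 50 kb of it, red is positive and blue negative. Grey bands span the quartiles of the absolute score over the whole list (33.1 to 77.2), and the regions at Pdgfrb (219) and F3 (-199) stand farthest from 0.

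Pdgfra, the gene of PDGFRα (chromosome 5, 75151322 to 75198206, plus strand), was the only member with more than 1 region inside the gene, and its regions had opposite signs. The start site used, that of the RefSeq start-site window, is 75152251 and lies inside these gene bounds. The first region, of 322 bp at 75174646 to 75174967, lay 22.4 kb past the start site and had a score of 109. The second, of 148 bp at 75185946 to 75186093, lay 33.7 kb past the start site and had a score of -137. They are 11.0 kb apart, and among all regions of the list 13.0% and 8.04% had an absolute score at least as large. The microRNA gene Mir7025, which lies within Pdgfra, is 1.86 kb from the positive region. No other region came within 50 kb, so the sorted antigen's gene holds 1 region of each sign in its body and none near its start.

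Pdgfrb, the gene of PDGFRβ (chromosome 18, 61045127 to 61085067), had no region inside it. The region with the largest absolute score of all 19 lay 9.305 kb below its lower end, at 61035624 to 61035822 (199 bp, score 219), and only 2.55% of the list had an absolute score at least as large. That region overlaps Cdx1, a homeobox gene of intestinal identity, and the predicted coding gene Gm52351, so it cannot be assigned to Pdgfrb. A second positive region of 53 bp (61014683 to 61014735, score 30.0) lay 30.4 kb away, with Cdx1 and Gm52351 between it and Pdgfrb and Slc6a7 as its nearest gene. On the other side, 35.5 kb above the upper end, a region of 58 bp at 61120562 to 61120619 inside Csf1r had a score of -63.7. Csf1r encodes the macrophage colony-stimulating factor receptor, a kinase of the same class as the PDGF receptors, and starts 20.5 kb from Pdgfrb. The 2 receptor genes thus differed in place: the regions of Pdgfra were inside the gene, and those of Pdgfrb were all nearer to a neighbour.

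Ly6a, which encodes the antigen Sca-1 (chromosome 15, 74994877 to 74998031), had 3 regions within 50 kb, all positive and none inside it. The strongest, of 89 bp at 74971566 to 74971654 (score 114), lay 23.2 kb below the gene in the long noncoding RNA gene Gm28068, past the related gene Ly6i. A region of 109 bp at 74958535 to 74958643 (score 78.7) lay inside Ly6e, a relative of Ly6a. The third, of 52 bp at 75047398 to 75047449 (score 27.7), lay inside Ly6c1, whose product is another antigen of progenitor subsets, 49.4 kb from Ly6a and just inside the limit. The Ly6 genes are a family of closely related neighbours, where short reads can be hard to place, and how the authors' alignment treated such reads was not stated.

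Cd34, the gene of a sialomucin on progenitor and endothelial surfaces (chromosome 1, 194938821 to 194961292, plus strand), had 1 region, inside the gene. It was 71 bp wide at 194949482 to 194949552, lay 10.7 kb past the start site and had a score of 40.5. Of the whole list, 63.0% of regions had an absolute score at least as large. With Ly6a, this made 4 positive and 0 negative regions at the general progenitor antigens.

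Dpp4 encodes dipeptidyl peptidase 4, a protease on the surface of stem-like progenitors (chromosome 2, 62330073 to 62412315, minus strand). Its region inside the gene was the closest to a start site of any member, 0.801 kb past it, and 3.29% of all windows had a start site within 1 kb of a region. It was 77 bp wide, at 62411354 to 62411430, with a score of 20.5, among the lowest of the list: 97.4% of regions had an absolute score at least as large. A negative region of 184 bp at 62307095 to 62307278 (score -57.8) lay 22.8 kb beyond the other end of the gene, inside Slc4a10. Just outside the limit, 50.02 kb from the gene and also inside Slc4a10, was a positive region of 532 bp with a score of 177, larger than either counted one.

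Pi16 encodes a peptidase inhibitor of stem-like fibroblasts (chromosome 17, 29318796 to 29328903, plus strand) and had 2 positive regions. That of 82 bp at 29321656 to 29321737 (score 31.7) lay 2.77 kb past the start site, inside Pi16 and the noncoding gene Gm46603. That of 98 bp at 29304460 to 29304557 (score 38.3) lay 14.2 kb below the gene, nearer to BC004004. Like the region inside Dpp4, but not the one beyond its other end, these were narrow and had absolute scores under the median of the list.

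Icam1 encodes an adhesion molecule that binds leukocyte integrins and marks committed preadipocytes (chromosome 9, 21015940 to 21028814, plus strand). It had 1 negative region, of 133 bp at 20972244 to 20972376 (score -54.1), 43.6 kb before its start site. That region lies inside S1pr2, a sphingosine 1-phosphate receptor gene, with Mrpl4 between it and Icam1.

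F3 encodes tissue factor (CD142), the trigger of the extrinsic clotting pathway (chromosome 3, 121723537 to 121735052, plus strand). Its 1 region was the widest of the 19, with 398 bp at 121713246 to 121713643, and lay 9.89 kb before the start site in no annotated gene, with F3 as the nearest coding gene. Its score was -199, and 3.25% of the list had an absolute score at least as large. This is the strongest of the 8 regions whose nearest coding gene is a member.

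Set side by side, Dpp4 and Pi16 had 4 regions, 3 positive and 1 negative, and Icam1 and F3 had 2, both negative. Over the whole list 67.4% of regions were negative, so 2 negative regions carry the usual sign. The stem-like pair had a region inside each gene, with scores of 20.5 and 31.7, and the committed and regulatory pair had none inside. Of all coding genes, 28.9% had a region inside. Absolute scores ran from 20.5 to 57.8 at the stem-like pair and were 54.1 and 199 at the other. The difference in sign rests on 6 regions in 1 pair of libraries and was not tested. The positive majority at the stem-like pair did not hold under some other settings. Within 100 kb the stem-like pair had 5 positive and 8 negative regions and the other pair 5, all negative. Among regions at least 100 bp wide the 1 region left at the stem-like pair was negative. The other pair kept its same 2 regions there. No region at the stem-like pair had an absolute score of 100 or more. Of the 6 regions within 50 kb, 3 have the marker as nearest coding gene. They are the weak positive regions in Dpp4 and Pi16 and the strong negative region before F3. The CpG-poor start sites belonged to the pair with regions inside the gene, and whether CpG content bears on where regions were called was not tested.

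Cd24a encodes a small glycosylated antigen used to isolate early adipocyte progenitors (chromosome 10, 43579169 to 43584265). It had the most regions of any member, 4, all below its lower end and in no annotated gene. From the gene outward they were positive, positive, negative and negative: 66 bp at 1.58 kb (score 29.7), 64 bp at 10.1 kb (score 47.1), 204 bp at 19.5 kb (score -107) and 67 bp at 37.4 kb (score -36.0). The outer pair lies nearer to Mtres1 than to Cd24a. The switch of sign thus falls between 10.1 and 19.5 kb from the gene.

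Cd9 encodes a tetraspanin found on progenitors of fibrotic fat (chromosome 6, 125460266 to 125494760, minus strand) and had no region within 50 kb, as did 31.5% of coding genes. The nearest was 102 kb above its upper end, inside Vwf, the von Willebrand factor gene (161 bp, score -136), and the nearest on the other side was 203 kb away (92 bp, score 29.5). A region missing from the list says only that none was called there.

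Between 50 and 100 kb most regions were negative, as in the list as a whole. Pi16 alone had 7 of the 20 regions at that distance, 6 of them negative, all below the gene. The strongest was 400 bp wide, inside Ppil1, 67.1 kb from Pi16, with a score of -403, and 4 of the 6 lay in Ppil1. Ly6a had 3 negative and 1 positive region there, against 3 positive within 50 kb. F3 and Icam1 had 2 and 1 more, again all negative. Out to 250 kb, 64 of the 103 regions counted over all members were negative, or 62.1%, against 67.4% over the list. Negative regions made up 5 of 5 at Icam1, 10 of 12 at F3, 7 of 8 at Cd9, 7 of 11 at Cd24a, 10 of 16 at Pi16 and 8 of 13 at Dpp4. They made up 10 of 19 at Pdgfrb, 4 of 8 at Pdgfra, 3 of 9 at Ly6a and 0 of 2 at Cd34.

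**Figure D4:**
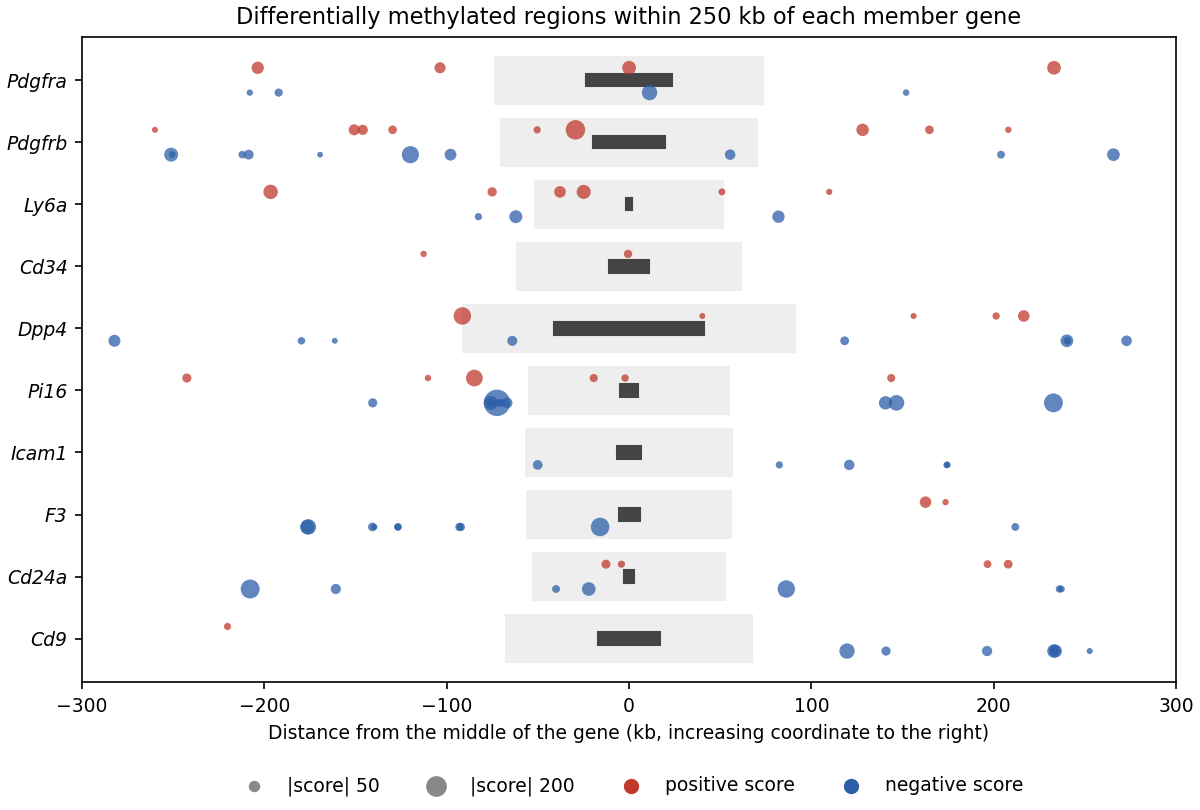
Regions within 250 kb of each member, by distance from the middle of the gene in kb (x axis); dark bars are the genes, grey boxes the genes with 50 kb on both sides, red dots positive and blue dots negative regions, with dot area in proportion to the absolute score. The 6 negative regions below Pi16 crowd just outside its grey box, and Cd9's box is empty.

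The genes that act with the PDGF receptors had negative and positive regions in about the proportion of the whole list. Of 19 genes (4 ligands, 3 receptors of the same kinase class and 12 signal mediators) 18 had a region within 50 kb (68.5% of all coding genes did), and 69.7% of their 66 regions were negative (57.8 to 79.4), against 67.4% over the list. The lengths of these genes, and of those in the lists below, were not matched to all coding genes. A longer gene is counted over a wider window, so 18 of 19 cannot be called high. The interval overlaps that of the members, and the difference from them was not tested. The sets are not separate, since the region in Csf1r is counted at Pdgfrb and here. Pik3r1 alone gave 16 of the 66 regions, 14 of them negative. Among the ligands, Pdgfa, which encodes PDGF-A, a ligand of PDGFRα, had 3 regions, all positive and inside the gene, the strongest with a score of 411 over 372 bp. Pdgfb, which encodes a ligand of both receptors, had 3, all negative and outside the gene (strongest -58.0). Pdgfd had 2 negative regions inside the gene (strongest -32.7), and Pdgfc 1 positive region (29.7). Ligand genes therefore went both ways.

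Kit, which follows Pdgfra on chromosome 5 at 377 kb, had 4 regions within 50 kb, all negative (strongest -117), and Flt3 1 of each sign (strongest 61.3). Among the mediators, Pik3r1, the regulatory subunit gene of phosphoinositide 3-kinase, held 16 regions, 14 of them negative and 11 inside the gene, with a strongest score of -308 over 753 bp. Grb2, an adaptor that links receptors to Ras, had 8, all negative (strongest -115), and Ptpn11, the gene of the phosphatase SHP2, 3, all negative (strongest -137). Stat3, a transcription factor gene, had 5, all positive (strongest 161). Src was the 1 gene without a region.

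Other markers of the progenitor classes held more positive than negative regions within 50 kb. Of 18 such genes 16 had a region, against 68.5% of all coding genes, and 36.8% of their 68 regions were negative (26.3 to 48.6), against 67.4% over the list. The interval treats regions as independent, but some genes held runs mostly of 1 sign. Meox2 had 7 of 7 positive, Fabp4 7 of 8 positive and Mgp 6 of 7 negative, so the interval is likely too narrow. All 6 other stem-like markers had a region, with 13 positive and 7 negative in all. They included Anxa3, an annexin gene (6 regions, strongest -189), Bmp7, a bone morphogenetic protein gene (3 regions, strongest 115), Wnt2 (4 regions, strongest 69.1) and Dact2 (4 regions, all positive, strongest 50.8).

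The 6 other committed markers had 19 positive and 9 negative regions, so positive scores prevailed there too, unlike at Icam1. Pparg, the master regulator of adipocyte formation, had 6 of 7 positive (strongest 102), Aoc3, an amine oxidase gene, 2, both positive (strongest 89.9), and Fabp4, a fatty acid carrier gene, 7 of 8 positive (strongest 64.8). Lpl, the lipoprotein lipase gene, had 3 of 4 negative (strongest -89.2). Of the 6 other regulatory markers 4 had a region, with 11 positive and 9 negative in all. Gdf10 had 1 region (-126), Meox2 7, all positive (strongest 87.3), Mgp 6 of 7 negative (strongest -80.7) and Fmo2 3 of 5 positive (strongest 68.7). Side by side, negative regions made up 35.0% at the other stem-like, 32.1% at the other committed and 45.0% at the other regulatory markers, and these differences were not tested.

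Further surface antigens of progenitors had a region in 11 of 13 genes, with 16 positive and 18 negative, beside the same 68.5% of coding genes and 67.4% negative regions overall. Eng, which encodes endoglin, had 4 (strongest 205), Vcam1 8 (strongest -163), and Fap, which follows Dpp4 at 88.6 kb and encodes a related protease, 6, of which 3 were negative (strongest -93.2). Ly6c1 had 2 (strongest -87.9), of which the positive one is also counted at Ly6a.

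Among markers of other cells that a sort of fat can carry along, none of 4 blood genes (Ptprc, Itgam, Adgre1 and Cd3e) had a region within 50 kb, although 68.5% of coding genes did. All 4 endothelial and all 4 mural markers had one, and 3 of 4 mesothelial markers. The endothelial markers had 12 positive and 11 negative regions, the mural markers 5 and 11, and the mesothelial markers 1 and 5. Over the whole list 67.4% of regions were negative. The largest absolute scores of the endothelial, mural and mesothelial markers were all negative. They were -369 at Kdr, the VEGF receptor gene that follows Kit on chromosome 5, -204 at Rgs5 and -251 at Lrrn4. Kdr had 7 regions of each sign, and Tek had 3, all positive (strongest 163). The part of cell mixture in the members' scores was not tested, and a list without levels per library gives no measure of it.

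**Figure D5:**
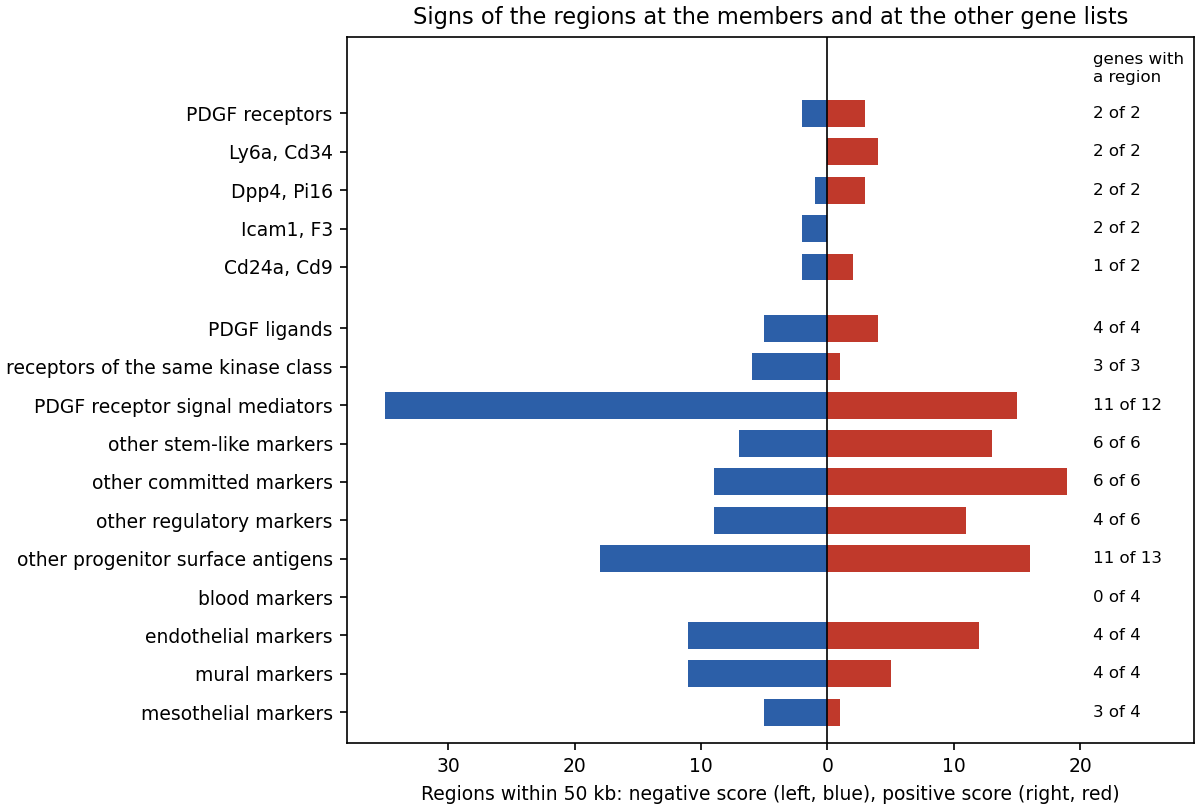
Number of regions within 50 kb with a negative (blue, to the left) and a positive score (red, to the right) for the members by role (top 5 bars) and for the other gene lists (below), with the number of genes that had a region at the right. Bars of the PDGF signal mediators reach to 35 negative regions, whereas the other stem-like and committed markers lean to the right.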

How the data were processed

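Bisulfite-converted DNA from 1 library per group was sequenced, per the labels' protocols. The authors deposited 1 list of regions that differ in methylation between the libraries, without a header, giving coordinates and 1 signed score for each. Per the submitters' processing notes the genome build was mm10. Aligner, caller, thresholds, coverage and the meaning of the score: not given in the sources used here. Depth is therefore unknown, and no level per library stands behind a score.

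Positions were read as BED and are printed counting from 1. Genes and start-site windows came from RefSeq tables of GRCm38.p6, the assembly mm10 names. Distances from a start site use the site of that window, which can lie inside the outer bounds of the gene. A region counts for a gene when at least 1 bp lies in the gene or within 50 kb. The intervals printed beside shares of negative regions are 95% Wilson intervals, which cover the counting of regions only. Other shares have none. With 1 library per group no test across libraries exists and no p-value was computed. CpG content and motifs were computed for start-site windows only, since no genome sequence was used here. The overlap counting was tested on simulated regions. Python 3.11.15, pandas 2.3.3 and SciPy 1.17.1 were used.

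The members, the gene lists and the naming rule were chosen with earlier results of these data known. The rule names all 10 members with every region in their windows and the coding genes those regions touch or pass over, and up to 4 genes per list by absolute score. Alternatives were other windows, thresholds on score and width, whole-region overlap, and assignment to the nearest coding gene.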

Additional observations from a re-analysis of the deposited data

How the results depend on the processing

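The values at the members depend mostly on how far from a gene a region may lie. Inside the gene bodies alone, 4 members had 5 regions, the Dpp4 and Pi16 pair had 2, the Icam1 and F3 pair had 0, and 10 genes each of the PDGF pathway and of the other progenitor markers had a region. With 5 kb on both sides the values were 5 members, 6 regions, 16.7% negative, 2 regions at Dpp4 and Pi16, 0 at Icam1 and F3, and 11 pathway genes. With 100 kb they were 39 regions, 59.0% negative, 13 regions at Dpp4 and Pi16 (5 positive, 8 negative) and 5 at Icam1 and F3, all negative. Regions of absolute score 100 or more left 5 members, 6 regions, 0 at Dpp4 and Pi16, 1 at Icam1 and F3, 7 pathway genes and 4 other markers. Regions at least 100 bp wide left 8 regions, 62.5% negative, 1 at Dpp4 and Pi16, which was negative, and 11 pathway genes. With 100 kb and with the limit on width the positive majority at Dpp4 and Pi16 was lost, and the limit on score left no region there. All regions counted at Icam1 and F3 were negative under these settings. For the limits on score and width no other sign was possible, since they only pick from the same 2 negative regions. Counting only regions whose nearest coding gene is the member left 8 regions, 2 at Dpp4 and Pi16 and 1 at Icam1 and F3. Of 48 alternative values, 29 are given here, and the other 19 stayed within 1.5 times the reported count or inside the interval of the reported share. They include the requirement that a whole region lie in the window, which moved none, and leaving out Cd24a, the member with the most regions. No paired analysis was possible because each group has 1 library. No read depth or CpG count stands beside a region, so what the depth could show is unknown.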
